A study of Mus musculus with 6 samples.

Results

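The histone genes are the genes for the proteins around which DNA is wound, together with the linker histones that close each turn. They were taken by symbol: genes whose name in the platform annotation, or whose current name, marks them as members of the Hist1 to Hist4 clusters or of the H1, H2A and H3 variant families. The gene table held 93 such genes, and 44 of them had a probe set that carried their symbol alone, among 19938 genes measured in this way. A further 39 were on the array only through probe sets that carry several symbols, and 10 were listed for no probe set. Those 10 were H1f0, H1f11-ps, H2ab2, H2ab3, H2ac14, H2af-ps1, H3f3a-ps1, H3f3a-ps2, H3f3c and H3f4. The 33 probe sets with several symbols are described apart, since 1 such value cannot be assigned to 1 gene.

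The study hybridized 6 Affymetrix arrays, 3 with RNA of wild-type mice (Roquin+/+) and 3 with RNA of sanroque mice (Roquin san/san), all 10 weeks old and of C57BL/6 background. Sanroque mice are homozygous for a mutation of Roquin, an RNA-binding protein encoded by Rc3h1 that represses the mRNAs it binds. The mutation is in the germline, so every cell type of the mouse carries it. The RNA came from CD8+ T cells low in CD44, flow-sorted from spleen and lymph node. Activated and memory T cells carry more CD44, an adhesion receptor, so the gate takes cells of naive surface type. The labels call the arrays biological replicates of a mouse and do not say whether animals were pooled.

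Histones come in kinds that are made at different times. The canonical genes of H1, H2A, H2B, H3 and H4 lie in clusters and are transcribed mainly in S phase, when new DNA has to be packed, and most of their mRNAs end in a stem-loop in place of a poly(A) tail. Replacement variants such as H2A.Z, macroH2A and the H3 variant of H3f3a and H3f3b are made throughout the cell cycle from polyadenylated mRNAs, and germ-cell histones belong mainly to testis and oocyte. A resting naive T cell makes little canonical histone mRNA, and a dividing lymphocyte makes much. The labelling followed the standard Affymetrix protocol per the labels. How the RNA was primed is not given in the sources used here, and it bears on how fully mRNAs without a poly(A) tail were read.

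Several canonical histone genes were higher in sanroque than in wild type, and replacement and germ-cell histone genes did not pass the test. Of the 44 genes, 7 rose, 1 fell and 36 did not pass. A gene passed when limma's moderated fit gave it an adjusted p (Benjamini-Hochberg, 19938 genes) below 0.05, as 5.77% of all genes did, 3.26% upward and 2.51% downward. The 7 that rose were the linker genes H1f5 and H1f1, the H2B genes H2bc3, H2bc14 and H2bc8, the H4 gene H4c6 and the H2A gene H2ac15, and H2bc21 fell. All 8 were canonical genes, and 19 other canonical genes did not pass. Of 8 replacement and 7 germ-cell genes 0 passed, to be read against the 5.77% of all genes. Whether the kinds differ was not tested. On 13 of the 44 genes each sanroque array read above each wild-type array, and on 3 each read below, against 9.46% and 13.2% of all genes. The median log2 fold (sanroque minus wild type) was 0.13 over the 44 genes and -0.03 over all genes. Of the 44 folds 33 were positive, and over all genes 7669 of 19938. In bulk RNA, more histone RNA per cell and more cells that make it cannot be told apart, and markers of dividing, B and myeloid cells, given after the histone values, were higher in sanroque too. Genes of a family are close to identical in coding sequence, so a probe set named for 1 gene may also read its relatives, which was not tested.

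The count of genes that rose depends on single arrays, as does the count over all genes. Leaving out either wild type replicate 1 or sanroque replicate 2 brought it to 3, which were H1f5, H1f1 and H2bc3 both times, while the calls over all genes in either direction went from 1151 to 218 and 392, and it was 5 to 7 when any of the other arrays was omitted. Omitting sanroque replicate 1 and wild type replicate 2, which an earlier look at these data had set apart, gave 3 as well, with 353 calls over all genes. In that fit they were H1f5, H2bc3 and H2bc14.

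**Figure D1:**
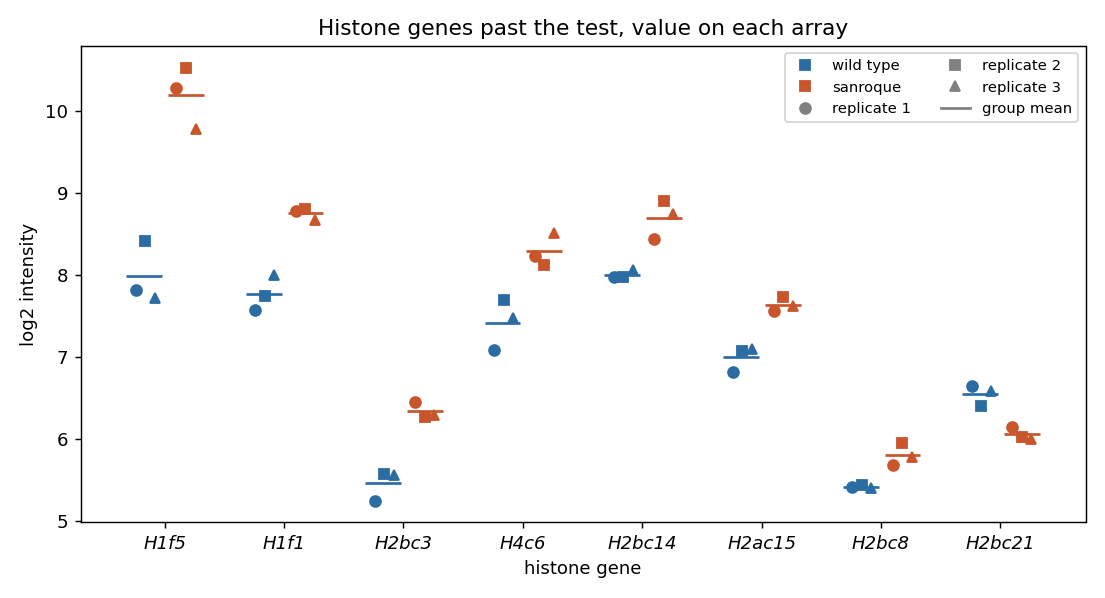
Log2 intensity (y axis) of the 8 histone genes that passed the test (x axis), 1 point per array, with bars at the group means. Sanroque and wild-type points do not overlap for any of the 8 genes, and the gap is widest for H1f5, where wild type read 7.72 to 8.41 and sanroque 9.78 to 10.53.

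Linker histones sit on the DNA that enters and leaves the nucleosome and compact the fibre. H1f5, formerly Hist1h1b, had log2 intensities of 7.82, 8.41 and 7.72 on the wild-type arrays, in the order of their replicate numbers as throughout, and of 10.28, 10.53 and 9.78 on the sanroque arrays. The groups lay more than 1 log2 unit apart, with wild type replicate 2 the highest of its group. The log2 fold was 2.21 ± 0.24 (SE of limma's fit, n = 3 per group), or 4.63-fold (adjusted p = 0.00473, limma with Benjamini-Hochberg adjustment). H1f1, formerly Hist1h1a, measured 7.56, 7.74 and 7.996 on the wild-type arrays and 8.78, 8.80 and 8.67 on those of sanroque. The 3 sanroque values lay close together and above the wild-type range, a log2 fold of 0.98 ± 0.11 or 1.98-fold (limma, adjusted p = 0.00596). H1f1 lost its call (adjusted p = 0.0713) without sanroque replicate 1 and wild type replicate 2 together, and H1f5 kept its call whichever array was left out.

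The other canonical linker genes did not pass. H1f2 gave 7.85, 8.63 and 8.08 on the 3 wild-type arrays and 8.16, 8.59 and 8.36 on the 3 sanroque arrays, so the groups overlapped, with a log2 fold of 0.18 (limma, adjusted p = 0.776). H1f3 lay near the low end of the scale, at 4.00 to 4.14 in wild type and 4.19 to 4.29 in sanroque, where a fold understates a change. The replacement linker gene H1f10 had a log2 fold of -0.00 with overlapping groups. Of the germ-cell linker genes, H1f7 read 6.30 to 6.66 in wild type and 6.12 to 6.27 in sanroque, a log2 fold of -0.26 (limma, adjusted p = 0.223), and H1f8 and H1f6 lay below 5 on average with overlapping groups. In limma 0 of the 7 germ-cell genes passed and 1, H1f7, had an unadjusted p below 0.05, as had 18.9% of all genes.

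The promoters of H1f5, of the called H2B gene with the largest fold (H2bc3), of the called H4 gene H4c6 and of the brightest replacement gene H2az1 are shown here, since the first 3 genes rose and H2az1, a replication-independent gene, did not pass. Each is the 150 bases before the annotated start, 5′ to 3′ on the gene's strand, from RefSeq on GRCm38.p6. Capitals mark matches, on either strand, to the CCAAT box (CCAAT), the TATA box (TATAAA), the octamer (ATTTGCAT), the core of the H4 subtype element (GGTCCG) and the core of the H1 box (AAACACA).
H1f5 (chr13:21780626-21780775, minus strand): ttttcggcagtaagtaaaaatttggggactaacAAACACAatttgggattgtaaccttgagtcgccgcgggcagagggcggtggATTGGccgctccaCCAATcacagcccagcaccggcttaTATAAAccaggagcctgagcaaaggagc
H2bc3 (chr13:23746584-23746733, plus strand): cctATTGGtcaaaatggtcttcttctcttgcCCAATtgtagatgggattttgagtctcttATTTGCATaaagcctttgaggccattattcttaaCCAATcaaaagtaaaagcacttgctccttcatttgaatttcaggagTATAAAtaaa
H4c6 (chr13:23551669-23551818, minus strand): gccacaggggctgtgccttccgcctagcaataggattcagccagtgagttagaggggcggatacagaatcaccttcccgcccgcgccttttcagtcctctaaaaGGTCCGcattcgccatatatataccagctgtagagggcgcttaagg
H2az1 (chr3:137864337-137864486, plus strand): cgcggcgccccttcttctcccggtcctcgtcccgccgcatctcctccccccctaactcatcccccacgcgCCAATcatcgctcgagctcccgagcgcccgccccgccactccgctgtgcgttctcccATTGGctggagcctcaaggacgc

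In H1f5 the TATA box began 28 bases before the start, CCAAT boxes began at 53 and 66 bases, and the H1 box core at 117 bases. H2bc3 carried the octamer 90 bases before the start between CCAAT boxes, and its TATA box match lay 10 bases before the annotated start. In H4c6 the subtype element core began 46 bases before the start. H2az1 held CCAAT boxes at 80 and 23 bases and none of the other 4 motifs in this window. H4c6 and the H4 and H1 motifs were chosen after their values were seen. A match is a description of the letters and not evidence of binding.

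Over the 250 bases before the start, the 32851 RefSeq promoter entries held the octamer in 1.60%, and it was in 7 of 16 H2B cluster promoters and 6 of 17 H2A cluster promoters, and in 0 of 5 H1, 0 of 10 H3 and 0 of 11 H4 cluster promoters. The H4 subtype element core was in 6.72% of entries and in 8 of 11 H4 cluster promoters. The H1 box core was in 6.25% of entries and in 4 of 5 H1 cluster promoters. CCAAT boxes were in 33.8% of entries, in all 5 H1, 17 H2A and 16 H2B cluster promoters, in 8 of 10 H3 and in 3 of 11 H4 cluster promoters. TATAAA was in 12.4% of entries and in 4 of 5 H1, 7 of 17 H2A, 7 of 16 H2B, 4 of 10 H3 and 6 of 11 H4 cluster promoters. RefSeq entries were given for 37 of the 44 genes. Many H2A and H2B genes lie head to head and share this stretch: 10 pairs of histone genes had overlapping windows, and in 2 pairs, H2bc8 with H2ac8 and H2bc1 with H2ac1, both genes had probe sets of their own. In the first pair the log2 folds were 0.38 for H2bc8 and 0.07 for H2ac8, and in the second 0.10 for H2bc1 and 0.13 for H2ac1.

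H2B, which pairs with H2A in the nucleosome's outer dimers, held 4 of the 8 genes that passed: of its 9 canonical genes 3 rose, 1 fell and 5 did not pass. H2bc3, formerly Hist1h2bb, stood at 5.24, 5.57 and 5.56 across the wild-type replicates, and at 6.45, 6.26 and 6.29 across the sanroque replicates. Each sanroque array was higher, by a log2 fold of 0.88 ± 0.11 or 1.84-fold (limma, adjusted p = 0.00699). H2bc14 had values of 7.97, 7.97 and 8.05 in the controls against 8.44, 8.90 and 8.74 in sanroque mice, with no overlap. Its log2 fold was 0.69 ± 0.12, or 1.62-fold (limma, adjusted p = 0.0217), and the call was lost without wild type replicate 1 (adjusted p = 0.106), wild type replicate 2 (0.0739) or sanroque replicate 2 (0.0593). H2bc8 measured 5.41, 5.43 and 5.40 on the wild-type arrays and 5.68, 5.94 and 5.78 on those of sanroque. Its log2 fold was 0.38 ± 0.08, or 1.31-fold (limma, adjusted p = 0.044), and the call did not survive the loss of any single array (adjusted p = 0.0527 to 0.166). It passed in 3 of 15 alternatives in all.

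H2bc21, formerly Hist2h2be, fell. It is an H2B gene whose mRNA is known also outside S phase. It gave 6.64, 6.40 and 6.58 on the 3 wild-type arrays and 6.15, 6.02 and 6.00 on the 3 sanroque arrays, so the groups did not overlap. The log2 fold was -0.49 ± 0.09, or 1.40-fold lower (limma, adjusted p = 0.025). The call was lost without wild type replicate 1 (adjusted p = 0.118), wild type replicate 3 (0.0587) or sanroque replicate 2 (0.0977).

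The remaining H2B genes did not pass. H2bc18 stood at 6.91, 7.03 and 6.85 across the wild-type replicates, and at 7.31, 7.52 and 7.13 across the sanroque replicates, a log2 fold of 0.39 (limma, adjusted p = 0.0931) with no overlap. It passed without sanroque replicate 3 (adjusted p = 0.0412). H2bc9 had a log2 fold of 0.22 with overlapping groups and passed without wild type replicate 3 (limma, adjusted p = 0.0478). H2bu2, H2bc22 and H2bc4 had log2 folds of 0.17, 0.01 and -0.18, the germ-cell gene H2bc1 0.10 and the pseudogene H2bu1-ps 0.06, with overlapping groups in these 5.

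H4, among the most conserved of proteins, had 7 genes with a probe set of their own. All 7 folds were positive (7669 of 19938 over all genes), with a median log2 fold of 0.26. H4c6 rose, from 7.08, 7.69 and 7.47 in wild type to 8.23, 8.12 and 8.51 in sanroque. Wild type replicate 1 was the lowest array and the groups did not overlap. The log2 fold was 0.88 ± 0.17, or 1.83-fold (limma, adjusted p = 0.0321). The call was lost without wild type replicate 1 (adjusted p = 0.0978), wild type replicate 3 (0.068), sanroque replicate 1 (0.0789), sanroque replicate 2 (0.0682) or sanroque replicate 3 (0.0559). After median centring of the arrays it also missed the threshold (adjusted p = 0.0631), as it did without sanroque replicate 1 and wild type replicate 2 together.

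H4c14 had values of 9.43, 9.34 and 9.60 in the controls against 9.79, 9.77 and 9.80 in sanroque mice, a log2 fold of 0.33 ± 0.08 with no overlap (limma, adjusted p = 0.064). It passed without wild type replicate 3 (adjusted p = 0.0362). H4c4 measured 9.53, 9.58 and 9.53 on the wild-type arrays and 9.52, 9.73 and 10.15 on those of sanroque, so that sanroque replicate 1 lay at the wild-type level and replicate 3 well above it. H4c3 spread in the same manner, from 6.35 to 6.45 in wild type and 6.33, 6.77 and 7.16 in sanroque. Their log2 folds were 0.26 and 0.35 (limma, adjusted p = 0.462 and 0.419). H4f16, H4c9 and H4c8 had log2 folds of 0.14, 0.12 and 0.04.

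H2A and its variants showed 1 gene past the test among 14. H2ac15, formerly Hist1h2ak, gave 6.81, 7.07 and 7.10 on the 3 wild-type arrays and 7.56, 7.73 and 7.62 on the 3 sanroque arrays, with no overlap. Its log2 fold was 0.64 ± 0.10, or 1.56-fold (limma, adjusted p = 0.0157), and the call was lost without wild type replicate 1 (adjusted p = 0.059) or sanroque replicate 2 (0.0604). The call was also lost without sanroque replicate 1 and wild type replicate 2 together (limma, adjusted p = 0.0761). H2ac4 stood at 3.94, 3.97 and 3.63 across the wild-type replicates, and at 4.20, 4.23 and 4.67 across the sanroque replicates, near the low end of the scale, with a log2 fold of 0.52 (limma, adjusted p = 0.105). H2aw, the H2A gene of the Hist3 cluster, read 8.72 to 8.82 in wild type and 8.57 to 8.99 in sanroque, a log2 fold of 0.05, and H2ac8 one of 0.07 near the low end of the scale. The germ-cell genes H2ac1, H2al2a and H2ab1 had log2 folds of 0.13, 0.14 and -0.12, and the pseudogene Macroh2a3 one of 0.11, with overlapping groups in all 4.

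Of the 3 canonical H3 genes with a probe set of their own 0 passed in limma, with 0 at an unadjusted p below 0.05. H3c4 had values of 5.21, 5.23 and 5.42 in the controls against 5.52, 5.32 and 5.43 in sanroque mice, a log2 fold of 0.14 (limma, adjusted p = 0.533). H3c15 and H3c7 lay near the low end of the scale, at 3.70 to 3.87, with log2 folds of 0.07 and -0.03. The H3 values that stood out came from the shared probe sets.

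**Figure D2:**
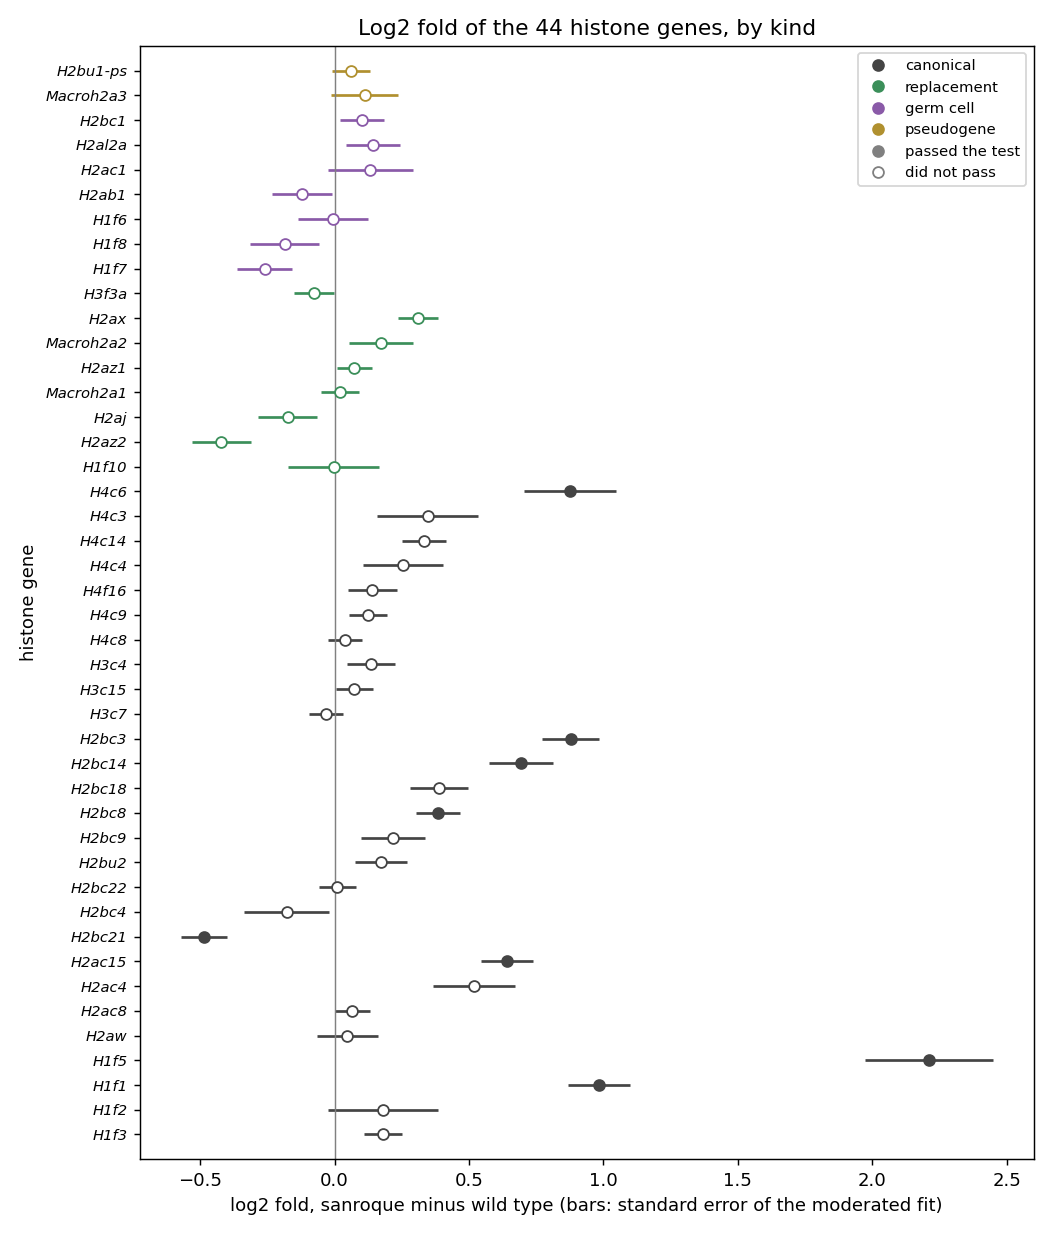
Log2 fold, sanroque minus wild type (x axis), of each of the 44 histone genes (y axis), coloured by kind, with the standard error of limma's fit as bars, filled where the gene passed the test. The filled points are all canonical genes, 7 to the right and H2bc21 to the left of 0, while replacement genes run from -0.42 to 0.31.

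Of the 27 canonical genes 7 rose, 1 fell and 19 did not pass, with 24 positive folds (7669 of 19938 over all genes) and a median log2 fold of 0.18. Of the 20 canonical genes of the Hist1 cluster 7 rose and 0 fell. Of the 7 canonical genes of the other clusters 0 rose and H2bc21 fell, with unadjusted p below 0.05 in limma for 3 of them and for 18.9% of all genes. Over all genes 3.26% rose and 2.51% fell, and whether the clusters differ was not tested. Of the 15 canonical genes above the median level of all genes 5 rose, and of the 12 below it 2 rose. When the 9969 genes above that level were fitted by themselves, 12.4% of them passed in either direction, against 5.77% of all genes in the main fit. Whether canonical genes differ by level was not tested.

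The replacement variants, which are placed in chromatin independently of replication, had a median log2 fold of 0.01 over 8 genes. In limma 0 of the 8 passed, and 2 had an unadjusted p below 0.05, against 18.9% of all genes. These 2 were H2ax and H2az2, whose folds had opposite signs. H2ax, the variant phosphorylated at DNA breaks, whose gene also gives a replication-dependent mRNA, measured 7.55, 7.62 and 7.48 on the wild-type arrays and 7.94, 7.77 and 7.88 on those of sanroque. The groups did not overlap, the log2 fold was 0.31 ± 0.07 (limma, adjusted p = 0.0604), and the gene passed after quantile normalization (adjusted p = 0.0395). H2az2, 1 of the genes of H2A.Z, the variant found at transcription start sites, gave 9.29, 9.33 and 9.43 on the 3 wild-type arrays and 8.70, 8.98 and 9.11 on the 3 sanroque arrays. Its log2 fold was -0.42 ± 0.11 with no overlap (limma, adjusted p = 0.0776), and it passed without sanroque replicate 3 (adjusted p = 0.0412).

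H2az1, the other gene of H2A.Z, stood at 11.06, 11.09 and 11.05 across the wild-type replicates, and at 11.08, 11.21 and 11.13 across the sanroque replicates, a log2 fold of 0.07 (limma, adjusted p = 0.695), and its further probe set gave 0.08. Macroh2a1, whose protein marks silent chromatin such as the inactive X chromosome, had values of 10.90, 11.00 and 10.84 in the controls against 10.91, 10.90 and 10.98 in sanroque mice, a log2 fold of 0.02. For Macroh2a1 the groups overlapped, and for H2az1 sanroque replicate 1 alone lay within the wild-type range, with the other sanroque arrays above it. H2aj had a log2 fold of -0.17 with overlapping groups, and Macroh2a2 one of 0.17 near the low end of the scale. The probe set that carries H3f3a alone lay at 4.26 to 4.47 with a log2 fold of -0.08.

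Of the 33 probe sets that carry several symbols, 26 list at least 2 histone genes. Among the 33, 17 rose and 0 fell in limma's fit over all 35399 probe sets, where 1.20% of probe sets rose and 0.398% fell, and 24 had an unadjusted p below 0.05, against 15.1% of all probe sets. Those that rose were all 10 of H3 and all 7 of H2B. On 24 of the 33 each sanroque array read above each wild-type array, and on 0 each read below. Over all probe sets these shares were 8.13% and 11.5%. Probe sets of a family read overlapping sets of genes, so they are repeated views of 1 pool of RNA and not separate genes.

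The 10 probe sets of the canonical H3 genes, the core histone whose tail carries many of the known modifications, each list 12 symbols. Their median over probe sets was 9.76, 9.89 and 9.74 on the wild-type arrays against 11.00, 11.06 and 11.27 on the sanroque arrays. The lowest sanroque value of any of the 10, 10.39, lay above the highest wild-type value, 9.99. Their log2 folds ran from 1.18 to 1.44 (median 1.31), or 2.27-fold to 2.71-fold (limma, adjusted p = 0.00919 to 0.0133). The 7 probe sets of the H2B genes, of 14 or 15 symbols, had array medians of 8.60, 8.74 and 8.76 for wild type against 9.65, 9.77 and 9.82 for sanroque. On each of the 7 the groups did not overlap, with log2 folds of 0.90 to 1.12 (median 1.10), or 1.86-fold to 2.17-fold (limma, adjusted p = 0.00919 to 0.0131). Among the 7, 6 were distinct, since 1 pair held identical values.

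The count of 17 rests on the arrays used. Without wild type replicate 1 it was 0, and so was the count over all 35399 probe sets, with log2 folds of 1.19 to 1.42 and adjusted p = 0.0738 to 0.0887 for H3 (limma), and 24 of the 33 still had an unadjusted p below 0.05, against 10.8% of all probe sets. Without sanroque replicate 1 and wild type replicate 2 together it was 4, where 0.226% of all probe sets passed. It was 13 to 17 without each of the other arrays, where 0.251% to 0.842% of all probe sets passed.

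The H4 and H2A probe sets had smaller folds and did not pass. The 5 of H4, with 11 symbols each, held 4 distinct rows of values, since 1 pair was identical, and had array medians of 10.67, 10.59 and 10.63 for wild type against 10.91, 11.06 and 11.19 for sanroque. The groups did not overlap on any of the 5, a separation that 8.13% of all probe sets showed upward. The log2 folds ran from 0.38 to 0.43 (limma, adjusted p = 0.0752 to 0.0937). The 2 of H2A, with 19 and 20 symbols, had log2 folds of 0.31 and 0.36 with no overlap (limma, adjusted p = 0.133 and 0.0859). When the 33 probe sets were fitted together with the single-symbol genes in place of all probe sets, all 5 of H4 passed (limma, adjusted p = 0.0331 to 0.0447) and 1 of the 2 of H2A, and 23 of the 33 rose. In that fit 5.98% of features passed, against 1.60% of all probe sets. Whether the H3 and H2B folds differ from the H4 and H2A folds was not tested.

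**Figure D3:**
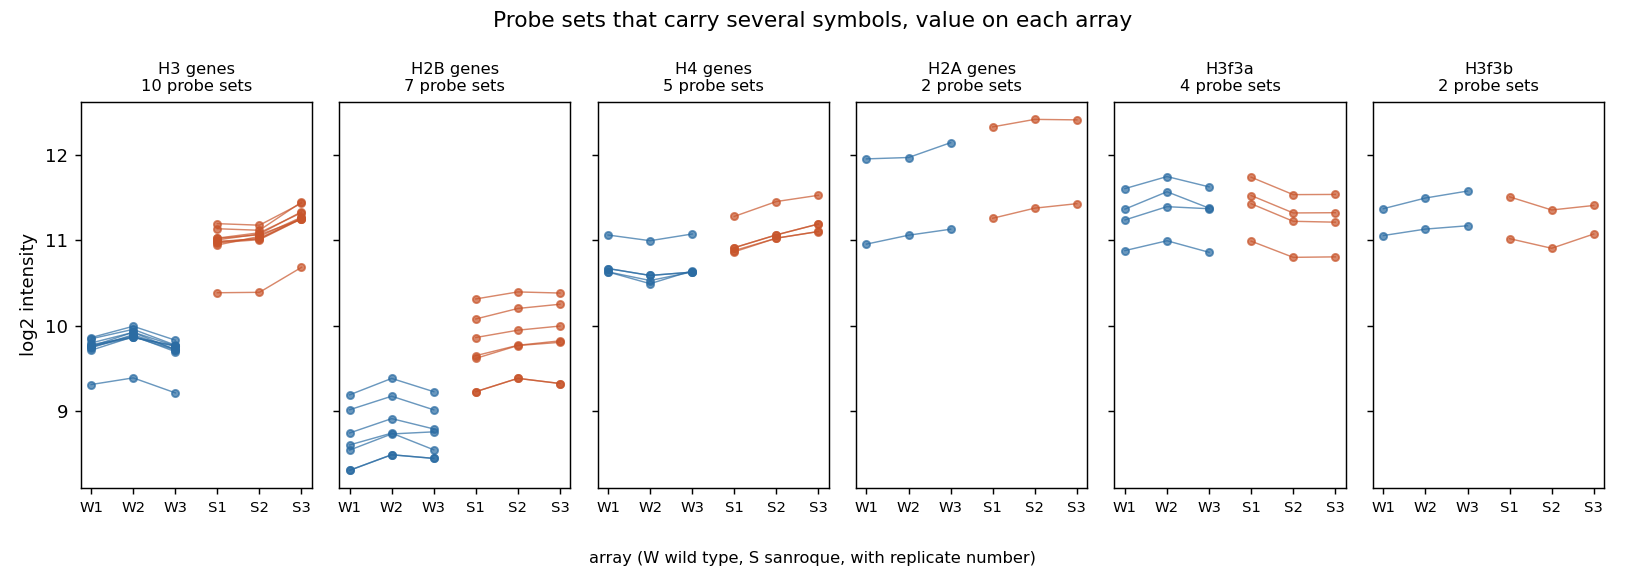
Log2 intensity (y axis) on each of the 6 arrays (x axis, W wild type, S sanroque, with replicate number) of the probe sets that carry several canonical H3, H2B, H4 or H2A symbols, and of those of H3f3a and H3f3b, 1 panel each and 1 line per probe set. The lines only join values of a probe set, and the arrays have no order. The step between wild type and sanroque is largest in H3, where medians are 9.74 to 9.89 in wild type and 11.00 to 11.27 in sanroque.

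The probe sets of the H3 replacement genes did not pass. The 4 of H3f3a, shared with Gm12657, had log2 folds of -0.06 to -0.05 (limma, adjusted p = 0.88 to 0.915), with array medians of 11.30, 11.48 and 11.37 for wild type against 11.48, 11.27 and 11.27 for sanroque. The 2 of H3f3b, shared with Gm6485, had log2 folds of -0.12 and -0.06 (limma, adjusted p = 0.564 and 0.87). The groups overlapped on all 6. The probe set of H2bc6 and H1f4 had a log2 fold of 0.37 ± 0.20 (limma, adjusted p = 0.495), that of H4c11 and H4c17 one of 0.14 and that of H2aw and Trim17 one of 0.11.

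Genes that serve histone supply were followed in 4 lists. Counts of these and of the marker lists further on are to be read against all genes, of which 3.26% rose and 2.51% fell. Among 30 measured genes of DNA replication in S phase, 6 rose and 0 fell, with a median log2 fold of 0.18. Rrm2, the ribonucleotide reductase subunit made in S phase, measured 6.43, 6.14 and 6.42 on the wild-type arrays and 7.59, 7.80 and 7.63 on those of sanroque, a log2 fold of 1.35 ± 0.10 (limma, adjusted p = 0.00203). Pola1, the polymerase that extends the primers laid by primase, rose by 0.61 ± 0.13, Lig1, the ligase that joins Okazaki fragments, by 0.59 ± 0.11, and Rrm1 by 0.52 ± 0.12 (limma, adjusted p = 0.0396, 0.0328 and 0.048). The lowest fold of the list was that of Prim1, the primase subunit, which gave 8.26, 8.27 and 7.70 on the 3 wild-type arrays and 7.38, 7.22 and 7.63 on the 3 sanroque arrays, a log2 fold of -0.66 with no overlap (limma, adjusted p = 0.0793). Pcna, the sliding clamp, had a log2 fold of -0.29 (limma, adjusted p = 0.168). Leaving out wild type replicate 1 or sanroque replicate 2 brought the count of 6 to 1, leaving out wild type replicate 2 gave 2, leaving out sanroque replicate 3 gave 3, and median centring gave 2. Calls over all genes, 1151 with all 6 arrays, were 218, 489 and 881 without wild type replicates 1, 2 and 3 in turn. They were 603, 392 and 1315 without sanroque replicates 1, 2 and 3, and 631 after median centring. These totals also stand beside the counts of the other lists.

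Among 16 measured genes of histone gene transcription 2 rose and 0 fell, with a median log2 fold of -0.06. Ccna2, the S phase cyclin that partners Cdk2, gave 4.87, 4.97 and 4.99 on the 3 wild-type arrays and 7.44, 7.31 and 6.85 on the 3 sanroque arrays, a log2 fold of 2.26 ± 0.15 (limma, adjusted p = 0.00169). E2f1, a transcription factor of S phase entry, rose by 0.35 ± 0.07 (limma, adjusted p = 0.0414). Npat, the coactivator at the histone locus, had a log2 fold of 0.26 (limma, adjusted p = 0.29), and its groups overlapped. The count was 3 without wild type replicate 3 and 1 without each other array.

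Among 31 measured genes of histone chaperones and deposition 2 rose and 1 fell, with a median log2 fold of 0.09. Mcm2, a helicase subunit that also holds parental H3 and H4, rose by 0.59 ± 0.12, and Chaf1a, the large subunit of the assembly factor that works behind the replication fork, by 0.49 ± 0.11 (limma, adjusted p = 0.0404 and 0.0461). Asf1a, which hands H3 and H4 to the assembly factors, fell, with a log2 fold of -0.54 ± 0.11 (limma, adjusted p = 0.0331). Leaving out wild type replicate 1, sanroque replicate 1 or sanroque replicate 2, or centring the arrays on their medians, brought the count of 3 to 0, and leaving out wild type replicate 2 brought it to 1.

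Among 21 measured genes of histone mRNA 3′ processing and decay 1 rose and 1 fell, with a median log2 fold of -0.11. Sympk, the scaffold of the cleavage complex, stood at 9.93, 10.11 and 10.04 across the wild-type replicates, and at 10.64, 11.29 and 11.16 across the sanroque replicates, a log2 fold of 1.00 ± 0.16 (limma, adjusted p = 0.0198). Cpsf3, the nuclease of that complex, fell, with a log2 fold of -0.32 ± 0.07 (limma, adjusted p = 0.0478). Slbp, which binds the stem-loop, had a log2 fold of -0.11 (limma, adjusted p = 0.776). The count of 2 was 1 without sanroque replicate 1 or 3, and 0 without each other array.

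Markers of division and of several other cell types were higher in sanroque as well. Mki67, the proliferation antigen, had values of 5.46, 5.79 and 5.37 in the controls against 8.14, 8.23 and 8.13 in sanroque mice, a log2 fold of 2.62 ± 0.11 (limma, adjusted p = 0.000999). Cd8a averaged 13.02 ± 0.03 over the wild-type arrays and 13.00 ± 0.02 over the sanroque arrays (SD, n = 3 each), and of 8 measured CD8 T cell markers 0 rose and 2, Cd3d and Cd247, fell, with summed intensities of 38363 to 40213 and 35056 to 36910. Of 12 measured B cell markers 8 rose, and their summed intensity was 2099 to 4969 in wild type and 7578 to 9298 in sanroque. Of 14 measured myeloid markers, of which Lyz2 (log2 fold 3.12) is the defining one, 12 rose, and their sum was 842 to 1631 in wild type and 8477 to 13059 in sanroque. Of 7 plasma cell markers, of which Jchain (log2 fold 3.28) is the defining one, 5 rose, with sums of 575 to 878 and 1727 to 2347. Sdc1 and Tnfrsf17 did not pass, with log2 folds of 0.19 and -0.05 and overlapping groups (limma, adjusted p = 0.635 and 0.899).

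Wild type replicate 2 had the highest B cell, plasma cell and myeloid sums of the wild-type arrays. Of 6 CD4 T cell markers 3 rose (sums of 393 to 439 and 723 to 1082), of 6 NK cell markers 3 (399 to 481 and 793 to 1163) and of 7 dendritic cell markers 1 (229 to 293 and 329 to 506). In that order, those that rose were Ctla4, Ikzf2 and Zbtb7b, then Eomes, Fcgr3 and Klre1, then Itgax. The defining markers Cd4, Ncr1 and Flt3 did not pass, with log2 folds of 0.95, -0.12 and 0.23 (limma, adjusted p = 0.0783, 0.858 and 0.375). Of 4 measured erythroid markers 0 rose in limma, with 0 at an unadjusted p below 0.05 (489 to 583 and 532 to 618). No value on an intensity scale is 0, so absence of a cell type cannot be read from it. The part of other cell types and of dividing cells in the histone result was not tested. Cd44, the gate's marker, was 2.63-fold higher in sanroque (limma, adjusted p = 0.00669), and Rc3h1 had a log2 fold of 0.14 (limma, adjusted p = 0.564), a level that does not check for the point mutation.

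**Figure D4:**
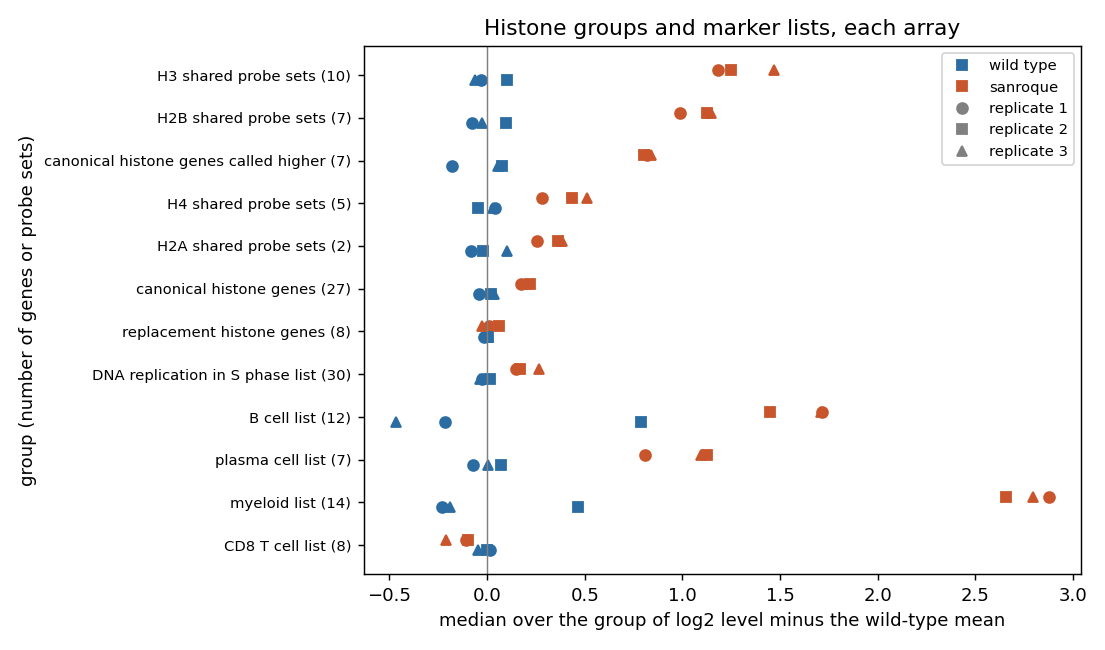
For each group of histone genes, histone probe sets or list genes (y axis, with their number), the median over the group of the log2 level minus the wild-type mean (x axis), 1 point per array. Sanroque arrays lie at 1.18, 1.25 and 1.47 for the H3 probe sets and at 0.15, 0.17 and 0.27 for the replication list, while replacement genes lie between -0.02 and 0.06.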

How the data were processed

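Each array has 1 deposited intensity per probe set, on a linear scale from 9.56 to 31996. Per the labels, biotinylated cRNA was hybridized. The submitters' processing notes name Partek without saying what it did. How background was corrected and how probes were summarized and normalized is not given in the sources used here. Since array medians were alike (53.59 to 56.88), log2 of the deposited values was used as it stood. Precision is limited by the number of arrays.

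Of 35399 probe sets, 21789 had exactly 1 symbol, 1621 several and 11989 were not listed or had no symbol in GEO's platform annotation. Symbols were updated by gene ID through the GRCm38.p6 gene table (19856 of 19938 genes matched). The brightest probe set by mean log2 over 6 arrays stood for a gene. For H2az1 and H2ab1 a further one existed, identical in value for H2ab1.

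Genes were compared with limma 3.58.1 (lmFit and eBayes, R 4.3.3), two-sided, unfiltered, with Benjamini-Hochberg adjustment over all genes, and probe sets of several symbols over all 35399 probe sets. The fit was tested on simulated data with independent normal noise and no array effects, so it does not cover such effects. There it recovered 59.6% of genes changed by a log2 fold of 0.5 and 98.5% of those changed by 1. Of the calls 5.77% were false. Python 3.11.15 and matplotlib 3.10.9 drew the figures. Near the low end of the scale means a mean log2 level below 5.

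Named genes were each histone gene that passed, the brightest 3 and the 2 of largest absolute fold per family and kind, up to 4 passing genes per list, and defining markers. The other members, Slbp, Npat, Prim1, Pcna, Mki67, Cd44 and Rc3h1 were added. The members and lists were chosen with earlier results of these data known. Alternatives covered probe set choice, a filter on dim genes, normalization, variance model, replicate block and arrays left out, and those for probe sets of several symbols were added after seeing the data.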

Additional observations from a re-analysis of the deposited data

How the results depend on the processing

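With array weights 14 histone genes rose and 3 fell, with per-gene one-way ANOVA without moderation 0 and 0 (limma: 7 and 1, and 15 of 44 at an unadjusted p below 0.05, against 13 by ANOVA), with the replicate block 3 and 0, and without both sanroque replicate 1 and wild type replicate 2, 3 and 1. Leaving out each array gave 3 to 7 and 0 to 2. Calls over all 19938 genes moved as well, from 5.77% to 23.7% with array weights, 0.0201% by ANOVA, 1.51% with the replicate block, 1.77% without both arrays and 1.09% to 6.60% without each array. Under the other settings 5 to 7 rose, where 3.16% to 12.4% of the genes tested passed in either direction. The median log2 fold was 0.07 to 0.17 over all alternatives. The labels do not say whether replicate numbers pair the arrays. Deviations of same-numbered arrays correlated at -0.05, -0.16 and -0.36 over genes, which cannot decide it.

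Of the probe sets of several symbols 0 rose by ANOVA and 0 with the replicate block (24 and 25 at an unadjusted p below 0.05), 4 without both arrays, 0 to 17 without each array, and 25 with array weights. Over all probe sets 0.00282% passed by ANOVA and with the block, and 17.0% with array weights. Without both arrays 0.226% passed, and without each array 0.00% to 0.842%. Genes passing in the lists of 3′ processing, transcription, chaperones and replication (2, 2, 3 and 6) were 8, 11, 19 and 15 with array weights, 0 in each by ANOVA, 1, 1, 0 and 1 with the replicate block, 1, 1, 0 and 2 after median centring, 1, 1, 6 and 6 among genes above the median level, 1, 1, 5 and 7 with trend and robust eBayes, and 1, 1, 0 and 2 without both arrays. Without each array they were 0 to 1, 1 to 3, 0 to 3 and 1 to 5. These are to be read against the shares over all genes given above and 3.16% after median centring. The share was 12.4% among genes above the median level and 6.23% with trend and robust eBayes. It was 7.94% with quantile normalization and 5.51% with the dimmest probe set. For 3′ processing the dimmest probe set gave 1, and for chaperones quantile normalization gave 6.

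The genes whose log2 fold changed sign were ones that had not passed: 24 changes in 10 histone genes, at most 0.15. Leaving out each array gave -0.11 to 0.14 for H1f6, -0.19 to 0.15 for H1f10, -0.035 to 0.17 for H2aw, -0.017 to 0.24 for Macroh2a3, -0.016 to 0.064 for Macroh2a1, -0.03 to 0.035 for H2bc22, -0.31 to 0.0006 for H2bc4 and -0.15 to 0.0034 for Cenpa. With array weights H1f6 was 0.097, H1f10 0.0021, H3c15 -0.015, Cenpa 0.091 and Asf1b -0.047. After median centring H2aw was -0.0009, Macroh2a1 -0.028, H2bc22 -0.039 and H4c8 -0.010, and after quantile normalization H1f6 was 0.0087 and H2bc22 -0.006. H2ac1 was -0.037 without both arrays. The causes were not tested.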

Other observations

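Histone-like genes outside the naming rule gave values near 0. Cenpa, the centromeric H3 variant, gave 8.48, 8.73 and 8.78 on the wild-type arrays and 8.58, 8.59 and 8.64 on the sanroque arrays, a log2 fold of -0.06 (limma, adjusted p = 0.864). H2ap, H2bl1 and H2al3 lay near the low end of the scale, with log2 folds of 0.01, 0.02 and -0.10, and their groups overlapped.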
